A study of Mus musculus with 16 samples.

Results

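The genes described here are 48 genes of DNA replication and cell division, taken by symbol from the 24001 gene rows of one expression table. Their roles put 25 of them in mitosis (cyclins A and B, their kinase, spindle, kinetochore and checkpoint proteins), 21 in S phase (the replication helicase and its loaders, nucleotide synthesis and the G1/S regulators) and 2 among the inhibitors of cyclin-dependent kinases (CDKs). The rule uses names and no measured value, but the list was drawn up with earlier results of these data known, and all 48 passed the filter on low values. They were read in marrow-derived dendritic cells (CD11c-high) of NZM2410, an inbred mouse strain that develops lupus, in 16 RNA-seq libraries that form 4 arms of 2 vehicle and 2 agonist libraries. The study compared forms of estrogen receptor α (ERα, encoded by Esr1) before and after stimulation of the endosomal receptors TLR7 and TLR9.

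Marrow of every arm was grown in GM-CSF (20 ng/ml) together with IL-4 (at 10 ng/ml) until day 7. Stimulated cultures received loxoribine (a TLR7 agonist) together with CpG DNA (a TLR9 agonist, 1 μg/ml) for 24 h, and the others received vehicle. The labels state the loxoribine dose as 200 μmol/ml, and nothing here checks that unit. The WT and KO arms came from mice without surgery. The ERKO OVX and Ex3a OVX arms came from mice ovariectomized at 4 to 8 weeks of age and given a pellet of 0.25 mg estradiol released over 90 days. By their source labels, the KO and ERKO OVX arms carried the shortened receptor (ERKO Shrt) and the Ex3a OVX arm the null allele. The genotype labels differ from this. They give the Esr1(tm4.2Ksk) allele, described as lacking all receptor activity, to the vehicle libraries of KO and of ERKO OVX. They give the Esr1(tm1Ksk) allele, described as a truncated receptor with residual activity, to the agonist libraries of those arms and to all 4 Ex3a OVX libraries. So in 2 arms vehicle and agonist libraries differ in their genotype label, and an agonist response there rests on the source label. Age at culture and the number of mice behind a library are not given. The labels speak of triplicates, and 2 libraries per group were analysed. Whether the 2 stem from separate mice is not stated, and p-values therefore reflect only how far they differ, which can be technical spread.

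A dividing cell copies its DNA in S phase and separates the copies in mitosis. In late G1, E2F factors switch on the genes for the MCM helicase, its loaders and nucleotide synthesis. Genes for mitosis are held down until G2 by the DREAM complex at promoter elements named CHR (cell cycle genes homology region), and are then activated by B-MYB and FOXM1, often beside CCAAT boxes bound by NF-Y. CDK inhibitors such as p21 (Cdkn1a) and p27 (Cdkn1b) hold cells in G1. Marrow cultures with GM-CSF hold both cycling precursors and dendritic cells that have left the cycle, so in these bulk libraries fewer cycling cells and less RNA per cycling cell cannot be told apart.

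The promoters of both classes are shown first, since they mark a sequence difference between the classes that the choice of genes did not use. RefSeq (build GRCm38.p6) gave a promoter for 41 of the 48 genes, as 250 bases before to 50 after the transcription start. The stretches below are the 150 bases before the start, 5′ to 3′ on the gene's strand, and capitals mark motif matches on either strand. A CHR was searched as TTTGAA and, as its variant form, TTCGAA. An E2F motif was searched as TTCCCGC, in a further form as TTGGCGC, and in a last form as TTCGCGC, and a CCAAT box by its name. The genes were picked after the matches were seen, to show both classes and their exceptions.
Cdk1: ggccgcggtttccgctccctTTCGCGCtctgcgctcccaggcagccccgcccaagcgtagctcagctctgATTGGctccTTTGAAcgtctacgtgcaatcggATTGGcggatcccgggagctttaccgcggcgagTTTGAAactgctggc
Cdc20: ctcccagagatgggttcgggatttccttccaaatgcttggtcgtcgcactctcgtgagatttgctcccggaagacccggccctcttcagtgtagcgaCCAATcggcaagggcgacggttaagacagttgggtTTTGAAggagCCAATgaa
Top2a: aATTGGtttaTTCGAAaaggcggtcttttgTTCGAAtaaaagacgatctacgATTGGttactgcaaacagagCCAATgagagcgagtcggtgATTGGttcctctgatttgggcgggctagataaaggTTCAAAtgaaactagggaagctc
Mki67: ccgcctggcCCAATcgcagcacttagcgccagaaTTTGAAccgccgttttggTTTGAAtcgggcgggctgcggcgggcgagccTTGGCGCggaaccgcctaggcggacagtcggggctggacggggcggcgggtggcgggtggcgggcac
Mcm5: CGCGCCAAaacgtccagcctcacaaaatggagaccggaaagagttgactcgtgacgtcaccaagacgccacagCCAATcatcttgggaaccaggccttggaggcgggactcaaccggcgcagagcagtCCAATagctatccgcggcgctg
Cdc6: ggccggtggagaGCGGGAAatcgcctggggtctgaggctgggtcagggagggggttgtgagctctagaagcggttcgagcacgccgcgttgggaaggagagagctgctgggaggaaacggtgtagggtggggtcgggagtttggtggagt
Mcm2: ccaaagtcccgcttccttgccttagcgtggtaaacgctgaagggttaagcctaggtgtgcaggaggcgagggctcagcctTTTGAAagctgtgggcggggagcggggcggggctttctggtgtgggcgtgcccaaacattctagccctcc
Tyms: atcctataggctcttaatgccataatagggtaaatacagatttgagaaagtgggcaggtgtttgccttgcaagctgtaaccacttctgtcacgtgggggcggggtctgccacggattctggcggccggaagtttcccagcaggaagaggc
These stretches lie at chr10:69352913-69353062 (minus strand) for Cdk1, chr4:118437344-118437493 (minus) for Cdc20, chr11:99024190-99024339 (minus) for Top2a, chr7:135716380-135716529 (minus) for Mki67, chr8:75109359-75109508 (plus) for Mcm5, chr11:98908001-98908150 (plus) for Cdc6, chr6:88898781-88898930 (minus) for Mcm2 and chr5:30073626-30073775 (minus) for Tyms. The first capitals of Mcm5 join 2 overlapping E2F matches. TTCGCGC begins 2 bases before the stretch, and GCGCCAA lies wholly within it. Tyms had no match to any of the motifs in its whole window, and Mcm2 is an S phase gene with a CHR and no E2F match.

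The shares that follow count genes, and a gene with several windows counts where any of them holds the motif. A CHR stood in the promoters of 76.2% of 21 mitotic genes and of 16.7% of 18 S phase genes. It stood in those of 16.4% of 8628 tested genes and of 21.7% of all 27025 genes with a promoter. An E2F motif stood in those of 55.6% of the S phase genes and 14.3% of the mitotic ones, beside 17% of tested genes and 9.2% of all genes. CCAAT boxes stood in those of 85.7% of mitotic and 55.6% of S phase genes, against 42.6% of tested genes. The E2F motif TTGGCGC read on the other strand can overlap a CCAAT box. Among 41 other mitotic genes with a promoter the shares were 73.2% for a CHR, 26.8% for an E2F motif and 65.9% for a CCAAT box. Among 38 other S phase genes with a promoter they were 28.9%, 63.2% and 60.5%. No share was tested against another. The bases after the annotated start were found in a GENCODE transcript for 35 of the 47 windows of these genes, so for the rest the start itself is less certain (Mki67, Mcm5 and Tyms among those shown). A match describes the letters only and is no evidence of binding.

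**Figure D1:**
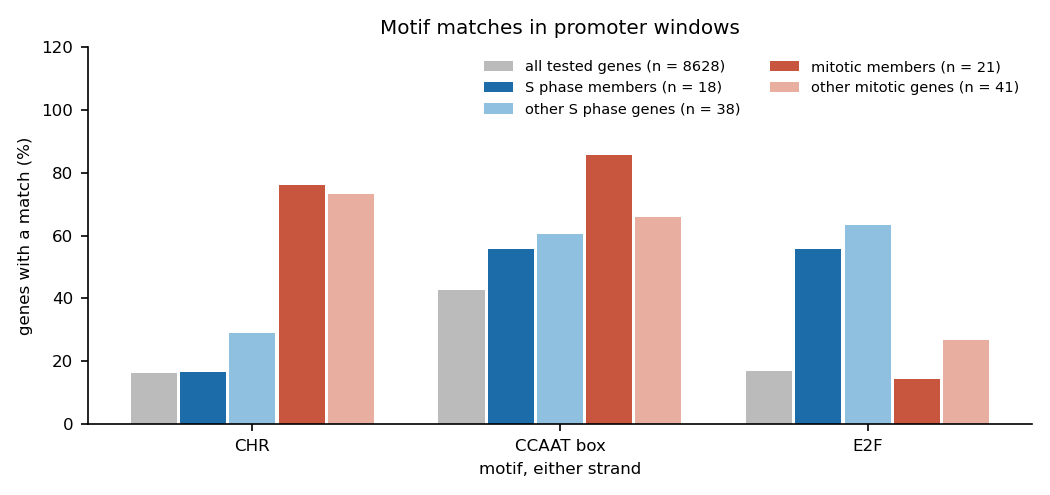
Share of genes (y axis, %) with a CHR, a CCAAT box or an E2F motif on either strand in any of their 300-base promoter windows. Bars are tested genes, S phase genes, other S phase genes, mitotic genes and other mitotic genes (n in the key). CHR matches are frequent in both mitotic lists (76.2% and 73.2%) and E2F matches in both S phase lists (55.6% and 63.2%).

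Some facts of the whole series bear on these genes. Depth, estimated from the steps between low values, was 36.6 to 44.0 × 1e6 fragments per unoperated library and 17.9 to 24.0 × 1e6 per ovariectomized one, a rough figure, and the FPKM values (fragments per kilobase of transcript and per sequenced total) of a library summed to 481738 to 522287 and to 612322 to 696321. Surgery, depth and FPKM sum therefore split the arms in the same way and cannot be told apart. Esr1, the targeted gene, had 1.21 and 1.38 FPKM in WT vehicle, 0.937 and 0.684 in WT agonist, 2.47 and 2.57 in KO vehicle and 2.01 and 1.77 in KO agonist libraries. It had 1.02 and 0.982 in ERKO OVX vehicle, 1.12 and 1.16 in ERKO OVX agonist, 0.347 and 0.283 in Ex3a OVX vehicle and 0.364 and 0.317 in Ex3a OVX agonist libraries. The libraries labelled KO thus held more Esr1 RNA than those labelled WT, but a value over the whole gene does not show which exons it holds, so it checks none of the alleles. All 8 dendritic cell markers reached 1 FPKM in every group (summed 5879 to 13561 FPKM). Summed markers of macrophages were 486 to 721 FPKM without surgery and 3409 to 4998 with it, those of neutrophils 50.1 to 118.8 and 266 to 1267, of marrow progenitors 4.96 to 8.42 and 26.4 to 55.3, and of mast cells and basophils at most 0.308 and 34.1 to 115.5. Changes below are differences of log2(FPKM + 1), which understate changes of genes with low values. Their error is the standard error of a limma fit over all 11347 tested genes, and a gene is said to rise or fall where its Benjamini-Hochberg adjusted p in limma was at most 0.05. Within each ovariectomized group the pair differed by little more than sampling noise and was averaged to 1 sample, so the error of those arms is borrowed from the unoperated ones and has no replicate check. Pairs without overlap were common over all genes. Within an arm both agonist libraries lay above both vehicle libraries in 38% to 43.2% of 11348 genes, and below in 35.5% to 37.4%. Between the arms compared at the same treatment, 38.1% to 46.1% lay wholly above and 38.2% to 44.7% wholly below. A lack of overlap, named below for single genes, is thus no result by itself.

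In every group the mean level of the S phase genes stood above that of the mitotic genes. The distance between these means moved with arm and treatment. Single genes did not all keep this order. In WT agonist libraries the mitotic gene Mki67 had 27.7 and 26.7 FPKM, and the S phase gene Cdc6 had 0.471 and 0.597. The mean log2(FPKM + 1) over the 21 S phase genes was 3.38 to 3.39 in the WT vehicle libraries and 2.80 to 2.83 in WT agonist libraries. Over the 25 mitotic genes it was 2.27 to 2.29 and 2.11 to 2.19. The S phase mean minus the mitotic mean was thus 1.10 to 1.11 with vehicle and 0.64 to 0.69 with agonists. For KO these were 0.66 to 0.69 and 0.30 to 0.31, for ERKO OVX 0.81 to 0.83 and 0.64 to 0.66, and for Ex3a OVX 0.90 and 1.01. The distance was smaller with agonists than with vehicle in 3 arms and larger in the Ex3a OVX arm. The WT agonist group had the lowest mean level of all 8 groups for 17 of the 21 S phase and 19 of the 25 mitotic genes. The Ex3a OVX vehicle group had the highest for 11 and 12 of them. The shares of all tested genes that were lowest or highest in these groups are not given here. These counts are therefore no result about the 48 genes by themselves. No test was made on these class means.

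**Figure D2:**
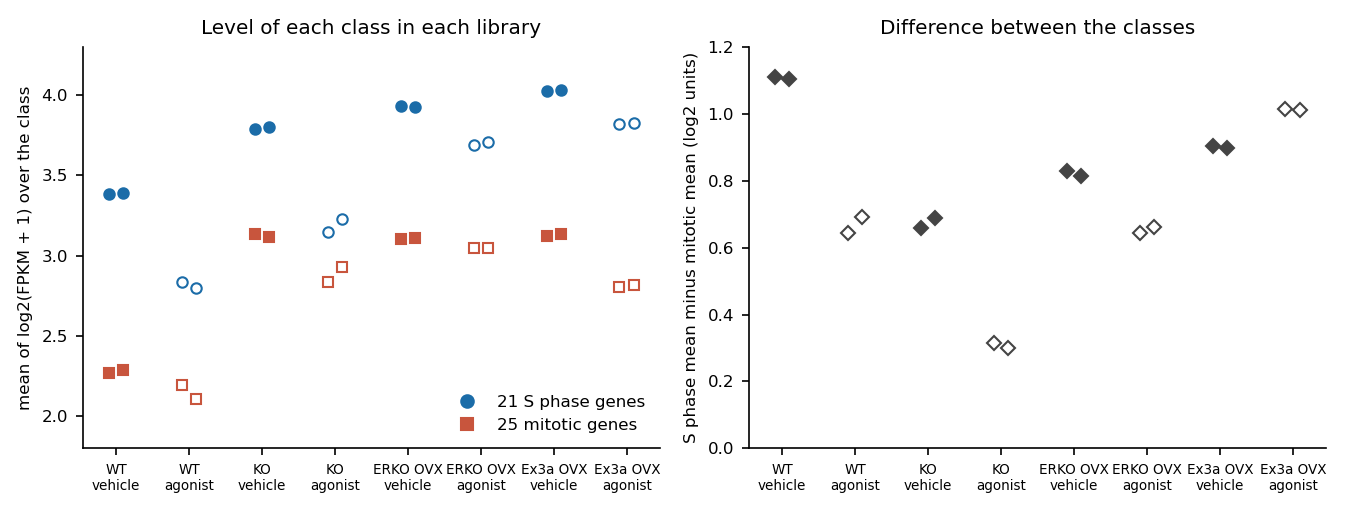
Mean of log2(FPKM + 1) over the 21 S phase genes and the 25 mitotic genes in each of the 16 libraries (left, y axis in log2 units) and the S phase mean minus the mitotic mean (right), by group; filled points are vehicle and open points agonist libraries. The difference lies at 1.10 to 1.11 in WT vehicle and 0.30 to 0.31 in KO agonist libraries.

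Among single genes, the median level over the 16 libraries ran from 0.375 FPKM in Cenpf, a kinetochore protein, and 1.15 FPKM in Chek1, a checkpoint kinase, to 135.6 FPKM in Pcna, the sliding clamp of DNA polymerases, and 253 FPKM in Cdkn1a. None of the 48 was at 0 in any library. Cenpf reached 1 FPKM only in the KO vehicle libraries (1.26 and 1.21), so it passed the filter on low values through that group alone. Its differences from that group are therefore no support. Tk1, thymidine kinase, spanned the widest range, 6.93-fold between its lowest and highest library, and Cdkn1a the narrowest, 1.38-fold.

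The first comparison asks how the agonists moved these genes in cells with the intact receptor. In WT, 20 of the 21 S phase genes fell and 1 rose (median log2 change -0.58), and 14 of the 25 mitotic genes fell and 2 rose (median -0.17). Of all tested genes 57.9% passed, 27% lower and 30.8% higher, with a median change of 0.02. The largest falls were those of Mcm2 and Mcm7, subunits of the MCM helicase that unwinds DNA, of Cdc6, which loads it, and of Rrm2, the regulated subunit of ribonucleotide reductase. Of the cell type markers tested in the same response, 4 of 5 for macrophages were lower and 1 higher (median -0.28). For dendritic cells 5 of 8 were higher and 1 lower (median 0.09). For progenitors 1 of 8 was higher and 2 lower (median -0.05), while their sum went from 4.96 to 5.41 FPKM up to 8.37 to 8.42. The part of these markers in the changes was not tested.

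Mcm2 had 11.5 and 11.5 FPKM in WT vehicle and 4.82 and 4.97 in WT agonist libraries. Its level fell by 1.09 ± 0.07 on the log2 scale (limma adjusted p = 4.68e-07). Both agonist libraries lay below both vehicle libraries by more than the spread within either pair. Mcm7 went from 13.1 and 12.7 to 6.17 and 6.21 FPKM and fell by 0.95 ± 0.05 (limma adjusted p = 1.81e-07), and Mcm5, a further subunit, from 15.8 and 15.5 to 8.996 and 8.67 FPKM, a fall of 0.76 ± 0.04 (limma adjusted p = 7.61e-08). Below, paired values joined by against are those of the vehicle libraries and then of the agonist libraries. All 6 MCM subunits were among the genes that fell in WT. Cdc6 had 1.75 and 2.01 FPKM with vehicle and 0.471 and 0.597 with agonists and fell by 0.91 ± 0.07 (limma adjusted p = 3.39e-06). Cdt1, which loads MCM together with Cdc6, fell by 0.80 ± 0.03.

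Genes of nucleotide supply moved in opposite directions. Rrm2 had 9.64 and 10.2 FPKM in WT vehicle and 5.20 and 4.72 in WT agonist libraries and fell by 0.87 ± 0.07 (limma adjusted p = 4.45e-06). Tk1, which salvages thymidine, had 6.43 and 6.65 against 3.50 and 3.54 FPKM and fell by 0.74 ± 0.05 (limma adjusted p = 6.22e-07). Tyms, thymidylate synthase, makes the same thymidine nucleotide from uridine nucleotide and rose from 5.07 and 5.36 to 11.9 and 11.7 FPKM, by 1.04 ± 0.04 (limma adjusted p = 3.03e-08). It was the single S phase gene that rose in WT. A pseudogene row, Tyms-ps, held at most 0.189 FPKM in any library, and how reads were split between the copies is not known here.

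The clamp, the G1/S cyclins and E2f1 fell as well. Pcna had 120.2 and 124 FPKM in WT vehicle and 87.96 and 85.2 in WT agonist libraries, a fall of 0.49 ± 0.03 (limma adjusted p = 2.41e-07). Ccne1, cyclin E1, which starts S phase with CDK2, had 6.54 and 6.18 against 4.56 and 3.98 FPKM and fell by 0.48 ± 0.06 (limma adjusted p = 0.000105). E2f1 had 11.2 and 10.01 against 8.69 and 8.36 FPKM and fell by 0.28 ± 0.05 (limma adjusted p = 0.00107). Ccne2, cyclin E2, fell by 0.57 ± 0.06. The vehicle and agonist libraries did not overlap in any of these 4 genes.

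The mitotic median of WT was nearer to 0 than the S phase median, a difference between classes that was not tested. Ccnb1, cyclin B1, had 4.17 and 4.48 FPKM with vehicle and 3.52 and 3.58 with agonists and fell by 0.23 ± 0.07 (limma adjusted p = 0.0157). Its kinase Cdk1 had 5.87 and 5.68 against 4.97 and 4.40 FPKM and fell by 0.25 ± 0.05 (limma adjusted p = 0.00155). The fall of Ccnb1 did not pass without WT vehicle replicate 2 (-0.18) or without WT agonist replicate 1 (-0.22), and that of Cdk1 passed with each of the 16 libraries left out in turn. Top2a, the topoisomerase that disentangles sister chromatids, had 8.14 and 8.10 against 7.10 and 6.33 FPKM and fell by 0.24 ± 0.06 (limma adjusted p = 0.00417). Cdc20, the activator of the anaphase-promoting complex, had 3.64 and 3.62 against 2.96 and 3.28 FPKM and fell by 0.17 ± 0.04 (limma adjusted p = 0.00838), a call lost without WT agonist replicate 1 (-0.11). Plk1, polo-like kinase 1, had 2.92 and 2.75 with vehicle and 2.76 and 2.66 FPKM with agonists, and its change of -0.05 ± 0.05 did not pass (limma adjusted p = 0.457). The largest mitotic falls were those of Aurka (Aurora A kinase of the spindle poles), by 0.42 ± 0.08, Aurkb (Aurora B kinase), by 0.39 ± 0.05, and Cdca8 (borealin, its partner), by 0.37 ± 0.04.

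2 mitotic genes rose in WT. Mki67, which coats mitotic chromosomes and marks cycling cells, had 17.5 and 17.5 FPKM with vehicle and 27.7 and 26.7 with agonists and rose by 0.61 ± 0.03 (limma adjusted p = 2.73e-07). Mad2l1, a spindle checkpoint protein, had 6.93 and 7.79 against 9.83 and 8.95 FPKM and rose by 0.31 ± 0.06 (limma adjusted p = 0.0015). Both CDK inhibitors rose as well. Cdkn1a went from 218 and 217 to 258 and 272 FPKM, by 0.28 ± 0.03 (limma adjusted p = 4.57e-05), and Cdkn1b from 15.8 and 15.8 to 17.9 and 18.4 FPKM, by 0.19 ± 0.03 (limma adjusted p = 0.000491).

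In the libraries labelled KO the agonists lowered 20 of the 21 S phase genes and 22 of the 25 mitotic genes, with medians of -0.65 and -0.27 (51.2% of tested genes passed, 25.3% lower and 25.9% higher, median 0.01). Cenpf, among these 22, passed the filter on low values only through the KO vehicle libraries, so its fall is no support. The rising genes were Tyms, Mki67, Cdkn1a and Cdkn1b, each of which had also risen in WT. Of the macrophage markers, 3 of 5 were lower in this response and none higher (median -0.35), and of the dendritic cell markers 3 of 8 were higher and 3 lower. Of 8 progenitor markers 1 was higher and 2 lower (median 0.01), while their sum went from 5.51 to 5.81 FPKM up to 7.32 to 7.89. The part of these markers was not tested. Mcm2 had 14.4 and 13.5 FPKM with vehicle and 5.64 and 6.83 with agonists and fell by 1.05 ± 0.07 (limma adjusted p = 7.73e-07). Uhrf1, which carries DNA methylation to the new strand, fell by 0.91 ± 0.04. Mcm7 had 19.8 and 20.1 against 9.61 and 10.98 FPKM and fell by 0.89 ± 0.05, and Cdc6 had 2.25 and 2.34 against 0.711 and 0.906 FPKM and fell by 0.87 ± 0.07. In these 3 genes with printed values the agonist pair lay wholly below the vehicle pair.

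Other S phase genes of the KO arm fell as well. Mcm5 had 23.2 and 23.6 FPKM with vehicle and 12.7 and 13.5 with agonists (a fall of 0.79 ± 0.04), and Rrm2 had 17.9 and 18.4 against 8.99 and 10.8 (a fall of 0.82 ± 0.07). Tk1 had 11.5 and 11.4 against 5.93 and 6.65 FPKM and fell by 0.78 ± 0.05, while Pcna had 118 and 116 against 83.8 and 85.9 and fell by 0.46 ± 0.03. Vehicle and agonist libraries did not overlap in any of them. Ccne1 had 8.14 and 8.83 against 5.07 and 5.52 FPKM and fell by 0.59 ± 0.06, and E2f1 had 11.8 and 11.3 against 7.99 and 8.44 and fell by 0.45 ± 0.05. Tyms rose from 8.92 and 8.26 to 16.3 and 15.96 FPKM, by 0.84 ± 0.04 (limma adjusted p = 1.79e-07), against the direction of its class.

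The largest mitotic falls of the KO arm were those of Aurkb (-0.43 ± 0.05) and of Nusap1, a protein of spindle microtubules (-0.43 ± 0.06). Ccnb1 had 10.3 and 9.45 FPKM with vehicle and 7.46 and 8.75 with agonists and fell by 0.26 ± 0.07, and Cdk1 had 8.51 and 8.85 against 7.61 and 7.84 and fell by 0.15 ± 0.05 (limma adjusted p = 0.0285). Top2a had 17.2 and 17.1 against 12.9 and 14.3 FPKM and fell by 0.31 ± 0.06, and Cdc20 had 8.12 and 8.21 against 6.59 and 6.66 and fell by 0.27 ± 0.04. In each of the 4 the agonist libraries were the lower ones. Plk1 had 6.75 and 6.61 against 5.55 and 6.15 FPKM and fell by 0.17 ± 0.05 (limma adjusted p = 0.0202). The calls of Plk1, Ccnb1 and Cdk1 were lost without KO agonist replicate 1 (-0.10, -0.16 and -0.13) and without KO vehicle replicate 1 (-0.15, -0.20 and -0.18), and those of Plk1 and Cdk1 also without KO vehicle replicate 2 (-0.18 and -0.12). That of Cdk1 was further lost without KO agonist replicate 2 (-0.17). Mki67 went up from 23.8 and 22.95 to 26.4 and 27.4 FPKM, by 0.19 ± 0.03. Cdkn1a had 232 and 241 against 299.8 and 287 FPKM and rose by 0.31 ± 0.03, and Cdkn1b had 19.6 and 19.3 against 21.2 and 20.9 and rose by 0.11 ± 0.03, the latter a call lost without KO vehicle replicate 2 or KO agonist replicate 1 (0.10 in both).

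The response itself was compared between the KO and WT labels with an interaction term. Of all tested genes 6.95% passed, 2.3% with a more positive and 4.65% with a more negative response in KO. Of the 48, 2 had a more negative one and none a more positive one. Nusap1 had 2.09 and 1.84 FPKM in WT vehicle and 2.24 and 2.01 in WT agonist libraries, against 6.16 and 5.86 against 4.07 and 4.36 in KO, a response that was lower in KO by 0.50 ± 0.08 (limma adjusted p = 0.00744). The rise of Mki67 was smaller in KO by 0.41 ± 0.05 (limma adjusted p = 0.00123). The WT and KO agonist libraries of Mki67 overlapped, while its KO vehicle libraries lay above the WT vehicle ones. For Mcm2 the responses differed by 0.03 ± 0.09, and over the 21 S phase genes by -0.29 to 0.10, with standard errors of 0.04 to 0.10, none of them past the threshold.

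The ERKO OVX arm carries the same source label of the receptor as KO, in ovariectomized mice with estradiol. There 12 of the 21 S phase genes fell and none rose (median -0.27), and 4 of the 25 mitotic genes fell and 1 rose (median -0.06), while 37.5% of tested genes passed, 19.2% lower and 18.3% higher. The largest fall was that of Pcna, from 203 and 204 to 149.7 and 150.4 FPKM, by 0.44 ± 0.04 (limma adjusted p = 5.11e-05). Mcm2 had 14.1 and 14.6 FPKM with vehicle and 10.6 and 10.5 with agonists and fell by 0.41 ± 0.09. Mcm7 had 20.9 and 20.2 against 15.4 and 15.3 FPKM and fell by 0.40 ± 0.07, and Mcm5 had 26.2 and 26.5 against 19.5 and 20.3 and fell by 0.39 ± 0.05. The agonist libraries of these helicase genes lay below the vehicle libraries by more than the pair's spread.

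Several S phase genes that fell without surgery did not pass in ERKO OVX. Rrm2 had 25.5 and 25.7 FPKM with vehicle and 21.8 and 20.97 with agonists, a change of -0.25 ± 0.10 (limma adjusted p = 0.0785) that passed without either KO agonist library (-0.25). Cdc6 had 2.32 and 2.16 against 2.21 and 1.97 FPKM (-0.07 ± 0.10), and its pairs overlapped. Ccne1 had 10.9 and 11.6 against 9.95 and 10.4 FPKM (-0.13 ± 0.09), with the agonist libraries lower and no overlap. E2f1 had 14.00 and 13.8 against 14.5 and 12.97 FPKM (-0.02 ± 0.07), and the pairs overlapped. Tyms had 9.95 and 9.75 against 10.6 and 10.9 FPKM, a change of 0.12 ± 0.06 that did not pass. Tk1 had 14.7 and 14.2 against 11.2 and 12.99 FPKM and fell by 0.24 ± 0.07 (limma adjusted p = 0.0181), a call lost without ERKO OVX agonist replicate 1 (-0.14).

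Of the 25 mitotic genes, 20 did not pass in the ERKO OVX arm. Ccnb1 had 11.1 and 11.3 FPKM with vehicle and 10.4 and 10.5 with agonists, Cdk1 had 13.00 and 12.9 against 12.6 and 12.1, and Top2a had 14.4 and 14.2 against 14.1 and 14.3. Their changes of -0.09 ± 0.09, -0.06 ± 0.07 and -0.01 ± 0.08 did not pass. Plk1 had 6.86 and 7.61 against 6.98 and 6.92 FPKM (-0.05 ± 0.07), with both agonist libraries between the vehicle ones. Cdc20 had 8.98 and 9.40 against 7.04 and 7.49 FPKM and fell by 0.30 ± 0.06 (limma adjusted p = 0.00467), the largest mitotic fall, beside those of Birc5 (survivin, a partner of Aurora B) by 0.27 ± 0.06, Ccnb2 (cyclin B2) by 0.26 ± 0.07 and Cdca8 by 0.20 ± 0.05. The call of Ccnb2 was lost without ERKO OVX vehicle replicate 1 (-0.15) or agonist replicate 2 (-0.14). Mki67 rose from 7.23 and 7.32 to 10.3 and 10.1 FPKM, by 0.44 ± 0.05. Cdkn1a (257 and 255 against 250.04 and 249.5 FPKM) and Cdkn1b (9.77 and 9.85 against 10.2 and 9.54 FPKM) did not pass, with changes of -0.04 ± 0.05 and 0.01 ± 0.04. Scaling each library to the same FPKM sum gave 2 rises and 10 falls among the 48 in this arm, with 2 mitotic falls. The mitotic changes moved with transcript length: the 5 mitotic genes with a transcript over 5000 bases had a median of 0.08 and the others of -0.10 (Spearman's rho 0.71 over 25 genes, and 0.29 over the 10809 tested genes with a length), and the part of length was not tested.

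The response of ERKO OVX was then set against that of KO, again by an interaction term. It was more positive for 16 of the 21 S phase genes and 7 of the 25 mitotic genes, and more negative for 1 S phase gene and 1 inhibitor, where 23.8% of tested genes passed, 11.3% and 12.4% in those directions. The S phase count was 10 without the filter on low values. The mitotic count was 12 with scaling by the FPKM sum or with the 16 libraries as separate samples, and 3 without KO vehicle replicate 1. The median difference was 0.46 over S phase genes, 0.18 over mitotic genes and 0.01 over all tested genes. The largest was that of Ccne2, which had 2.64 and 2.78 FPKM in KO vehicle and 1.10 and 0.992 in KO agonist libraries against 2.09 and 2.28 against 2.32 and 2.26 in ERKO OVX, a difference of 0.91 ± 0.10 (limma adjusted p = 0.000254). Cdc6 followed at 0.80 ± 0.13 (limma adjusted p = 0.00195), then Mcm2 at 0.64 ± 0.11, Cdt1 at 0.58 ± 0.06, Rrm2 at 0.57 ± 0.12 and Uhrf1 at 0.55 ± 0.07. All 6 of these genes fell in KO. In ERKO OVX, Mcm2 and Uhrf1 fell, and Cdc6, Cdt1, Rrm2 and Ccne2 did not pass, with overlapping pairs in Ccne2 (0.05 ± 0.08). The more negative genes were Tyms (-0.72 ± 0.07, limma adjusted p = 0.000185) and Cdkn1a (-0.34 ± 0.06, limma adjusted p = 0.00224), which had risen in KO. For Pcna the difference of 0.02 ± 0.05 did not pass. The macrophage, progenitor, neutrophil and basophil marker sums given above also differ between these arms, as does depth, and their part in the difference was not tested. Single macrophage markers went both ways, with 3 of 5 higher in ERKO OVX and 2 lower with vehicle, and 3 higher and 1 lower with agonists. Of 8 progenitor markers 7 were higher and 0 lower with vehicle, and 6 higher and 1 lower with agonists.

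**Figure D3:**
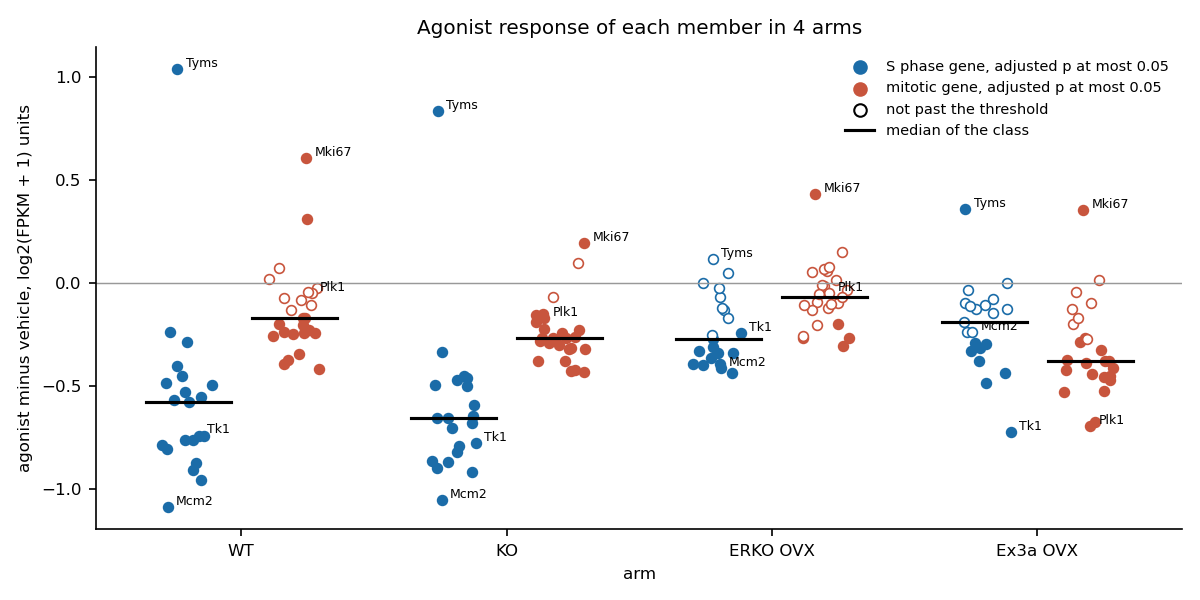
Agonist minus vehicle difference of log2(FPKM + 1) (y axis) of each of the 46 S phase and mitotic genes in the 4 arms; filled points had a limma adjusted p of at most 0.05, and the bar is the class median. In WT and KO the S phase median (-0.58, -0.65) lies under the mitotic median (-0.17, -0.27), and in Ex3a OVX the order is the other way (-0.19 and -0.38).

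In the Ex3a OVX arm the agonists lowered 17 of the 25 mitotic genes and raised 1 (median -0.38), and lowered 8 of the 21 S phase genes and raised 1 (median -0.19), beside 37.3% of tested genes that passed, 18.3% lower and 19% higher. With scaling by the FPKM sum, and with the 16 libraries as separate samples, 14 of the 21 S phase genes fell. The share of all tested genes that passed under these settings is not given here. The mitotic change moved with transcript length here too, with a median of -0.04 over the 5 mitotic genes past 5000 bases and -0.40 over the others (Spearman's rho 0.73 over 25 genes, against -0.14 over the 10809 tested genes with a length), and the part of length was not tested. The largest falls were those of Tk1, Plk1, Birc5 and Ccnb2. Tk1 had 24.2 and 23.3 FPKM with vehicle and 14.3 and 13.8 with agonists and fell by 0.72 ± 0.07 (limma adjusted p = 4.09e-05). Plk1 had 10.1 and 10.3 against 5.89 and 6.02 FPKM and fell by 0.69 ± 0.07 (limma adjusted p = 8.44e-05). Both agonist libraries of each gene lay below both vehicle libraries. Birc5 fell by 0.67 ± 0.06 and Ccnb2 by 0.53 ± 0.07.

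Among the other mitotic genes of Ex3a OVX, Ccnb1 had 10.5 and 10.2 FPKM with vehicle and 6.86 and 7.89 with agonists (a fall of 0.44 ± 0.09), and Cdk1 had 16.95 and 17.05 against 13.2 and 12.5 (a fall of 0.38 ± 0.07). Cdc20 had 10.3 and 10.7 against 7.73 and 8.04 FPKM and fell by 0.37 ± 0.06. Top2a had 12.2 and 12.01 against 11.2 and 11.3 FPKM, and its change of -0.10 ± 0.08 did not pass, although the pairs did not overlap. Mki67, against the class, went from 4.88 and 5.15 to 6.72 and 6.66 FPKM and rose by 0.36 ± 0.05 (limma adjusted p = 0.000468). Mki67 was thus called higher in all 4 arms, with both agonist libraries above both vehicle libraries in each.

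Of the S phase genes of Ex3a OVX, Rrm2 had 23.7 and 23.4 FPKM with vehicle and 17.2 and 17.2 with agonists (a fall of 0.43 ± 0.10), Pcna had 184 and 184 against 147 and 149 (a fall of 0.31 ± 0.04) and Mcm5 had 29.1 and 28.6 against 23.3 and 23.4 (a fall of 0.29 ± 0.05). Mcm2 had 17.1 and 16.7 against 14.3 and 14.04 FPKM, and Mcm7 had 23.7 and 21.7 against 20.01 and 19.6. Their changes of -0.24 ± 0.09 and -0.19 ± 0.07 did not pass, though the agonist libraries were the lower ones. Both passed without either KO agonist library (-0.24 and -0.19), and Mcm7 also without Ex3a OVX vehicle replicate 2 (-0.25) or agonist replicate 1 (-0.20). Ccne1 had 13.5 and 13.4 against 11.4 and 11.1 FPKM (-0.24 ± 0.09), E2f1 had 15.00 and 15.3 against 15.5 and 14.9 (0.00 ± 0.07) and Cdc6 had 2.65 and 2.39 against 2.10 and 2.58 (-0.08 ± 0.10), none of which passed. The pairs of E2f1 and of Cdc6 overlapped. Ccne1 passed without either WT agonist library (-0.24) or without Ex3a OVX agonist replicate 1 (-0.25). Tyms had 7.07 and 7.55 against 9.69 and 9.61 FPKM and rose by 0.36 ± 0.06 (limma adjusted p = 0.0015). Both inhibitors fell in this arm. Cdkn1a had 277 and 279 against 251 and 247 FPKM and fell by 0.16 ± 0.05, and Cdkn1b had 8.68 and 8.39 against 7.57 and 7.85 and fell by 0.13 ± 0.04, with an adjusted p in limma of 0.0392. That call was lost without either vehicle library of WT, any library of KO (-0.13 each), or replicate 1 of Ex3a OVX vehicle or agonist (-0.11 each).

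Between the ovariectomized arms, the response of 8 of the 25 mitotic genes and of 1 of the 21 S phase genes was more negative in Ex3a OVX than in ERKO OVX, and 1 S phase gene was more positive. Of tested genes 31.3% passed, 14.6% and 16.6% in these directions. The fitted response was more negative in Ex3a OVX for all 25 mitotic genes (median difference -0.26), and more negative for 9 of the 21 S phase genes (median 0.02). The median difference over all tested genes was 0.001. How many of all tested genes had a more negative fitted response is not given here, so these 2 counts have no share beside them. Plk1 differed the most, by -0.65 ± 0.10 (limma adjusted p = 0.00164). Its Ex3a OVX vehicle libraries held more than any other library (10.1 and 10.3 FPKM), and its agonist libraries of both arms lay between 5.89 and 6.98 FPKM. Bub1b, a spindle checkpoint kinase, differed by -0.49 ± 0.15, Tk1 by -0.48 ± 0.09, Aurkb by -0.41 ± 0.10, Birc5 by -0.41 ± 0.08 and Mad2l1 by -0.36 ± 0.12. Cdk1 differed by -0.31 ± 0.10, Nusap1 by -0.36 ± 0.12 and Kif11, the motor that separates the spindle poles, by -0.33 ± 0.10. Leaving out 1 library took the call from Bub1b (either KO vehicle library, -0.49), Mad2l1 (either KO agonist library, -0.36, or replicate 2 of either ovariectomized agonist group, -0.35), Cdk1 (either WT vehicle library, -0.31, ERKO OVX agonist replicate 1, -0.29, or Ex3a OVX agonist replicate 2, -0.28) and Nusap1 (either KO vehicle library, -0.36, ERKO OVX vehicle replicate 1, -0.26, or agonist replicate 1, -0.25, Ex3a OVX vehicle replicate 2, -0.33, or agonist replicate 2, -0.31). Mcm6 was the gene with the more positive response, 0.27 ± 0.09 (limma adjusted p = 0.0424), which scaling by the FPKM sum brought to 0.11, no longer past the threshold. It was also lost without the filter on low values, and without either WT agonist library (0.27), ERKO OVX vehicle replicate 1 (0.24) or Ex3a OVX vehicle replicate 2 (0.23). The count of 10 was 4 without the filter on low values, 20 with scaling by the FPKM sum and 26 with the 16 libraries as separate samples, and that of the mitotic genes in it was 3, 15 and 15. The shares of all tested genes that passed under these settings are not given here, so these counts are not set against them. Over all tested genes with a length, rho between length and this difference was -0.32, and over the 25 mitotic genes 0.25. Summed macrophage markers were 3625 to 3642 FPKM in ERKO OVX vehicle and 4950 to 4988 in Ex3a OVX vehicle libraries, and moved to 3409 to 3424 and 4936 to 4998 with agonists. Summed progenitor markers moved from 52.6 to 55.3 FPKM down to 39.3 to 41.0 in ERKO OVX, and from 50.8 to 53.2 down to 26.4 to 28.7 in Ex3a OVX, and their part in the mitotic falls was not tested. By single markers, 4 of 5 macrophage markers fell with agonists in Ex3a OVX and none rose (median -0.27), and 3 fell and 1 rose in ERKO OVX (median -0.18). Of 8 progenitor markers 5 fell in Ex3a OVX and none rose (median -0.46), and 4 fell and 1 rose in ERKO OVX (median -0.35).

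**Figure D4:**
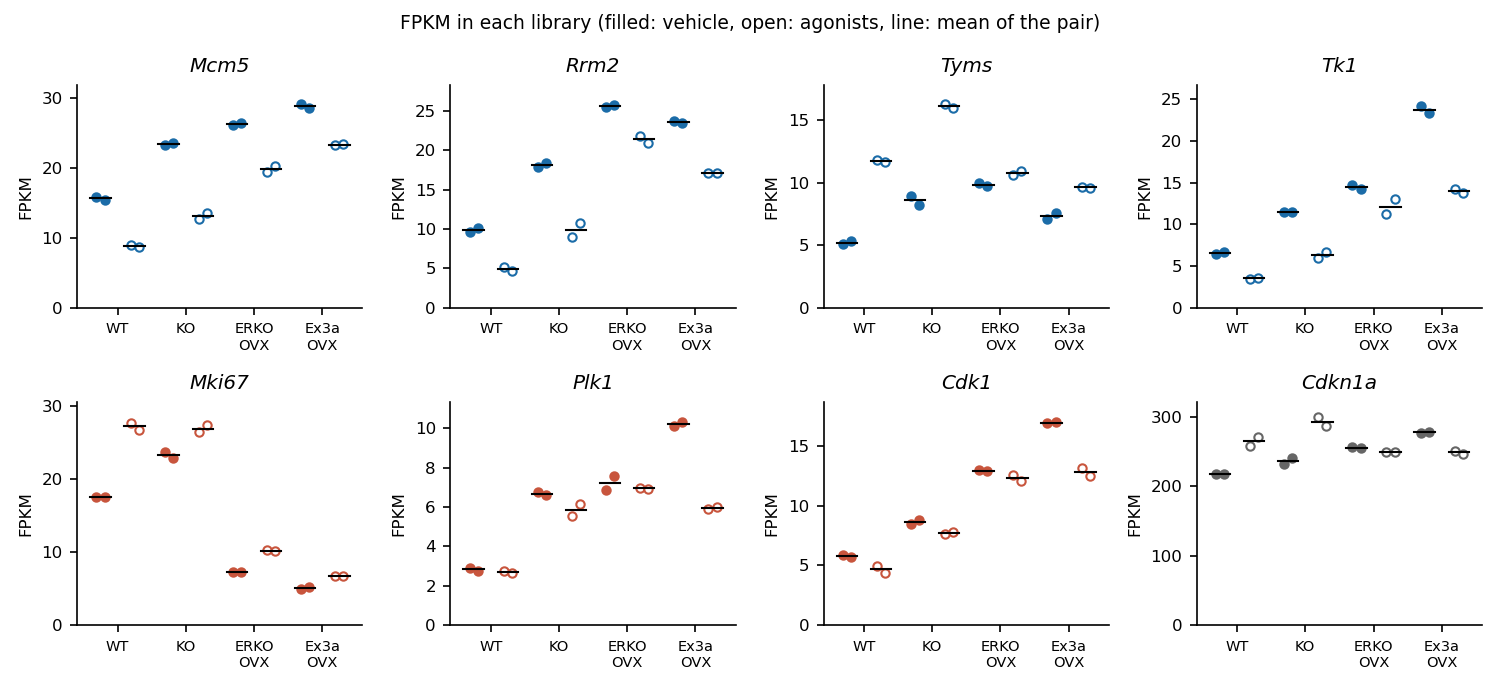
FPKM (y axis, from 0) of Mcm5, Rrm2, Tyms, Tk1, Mki67, Plk1, Cdk1 and Cdkn1a in each of the 16 libraries by arm; filled points are vehicle, open points agonist libraries, and the line is the mean of the pair. Tyms is higher with agonists in WT (5.07 and 5.36 against 11.9 and 11.7 FPKM) while Mcm5, Rrm2 and Tk1 are lower, and Plk1 is highest in Ex3a OVX vehicle libraries.

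The second question is how the arms differed at the same treatment. With vehicle, the libraries labelled KO held more of all 25 mitotic genes and of 18 of the 21 S phase genes than those labelled WT, and less of 1 S phase gene. Both inhibitors were higher as well. Cenpf, 1 of the 25 mitotic genes, passed the filter on low values only through these KO vehicle libraries (1.26 and 1.21 FPKM), so its count here is no support. The median differences were 0.86 over mitotic and 0.40 over S phase genes, beside 0.01 over all tested genes, of which 60.3% passed, 31.5% higher and 28.7% lower in KO. With agonists the counts were 24 of 25 mitotic and 18 of 21 S phase genes higher and none lower (medians 0.79 and 0.36), with 54.8% of tested genes passing, 27.2% higher and 27.6% lower.

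The widest differences with vehicle were mitotic. Nusap1 had 2.09 and 1.84 FPKM in WT and 6.16 and 5.86 in KO and was higher by 1.24 ± 0.06 (limma adjusted p = 9.91e-08). Ccnb2 was higher by 1.21 ± 0.05, Birc5 by 1.12 ± 0.04 and Ube2c, the ubiquitin-conjugating enzyme of the anaphase-promoting complex, by 1.03 ± 0.10. In the genes whose libraries are printed above, Ccnb1 differed by 1.03 ± 0.07, Plk1 by 1.00 ± 0.05, Top2a by 0.99 ± 0.06, Cdc20 by 0.99 ± 0.04 and Cdk1 by 0.51 ± 0.05, and both KO vehicle libraries lay above both WT vehicle libraries in each. Mki67 differed least among the mitotic genes, by 0.40 ± 0.03. With agonists Ube2c, Ccnb2, Ccnb1 and Prc1, which bundles the midzone of the spindle, led with 1.01 ± 0.10, 1.00 ± 0.05, 1.00 ± 0.07 and 0.96 ± 0.06. Mki67 did not differ past the threshold with agonists (-0.02 ± 0.03, limma adjusted p = 0.701).

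The S phase median was the smaller one, which was not tested as a difference between classes. Nucleotide genes were higher in KO with vehicle, Rrm2 by 0.81 ± 0.07, Tk1 by 0.73 ± 0.05 and Tyms by 0.63 ± 0.04, as were Ccne2 by 0.65 ± 0.06 and Ccne1 by 0.37 ± 0.06. Helicase subunits were higher by 0.26 ± 0.07 for Mcm2, 0.55 ± 0.04 for Mcm5 and 0.59 ± 0.05 for Mcm7. The call of Mcm2 was lost without KO vehicle replicate 1 (0.22). Cdc6 was higher by 0.20 ± 0.07, which did not pass without WT vehicle replicate 1 (0.13) or without KO vehicle replicate 1 (0.22) or 2 (0.18). Pcna (-0.06 ± 0.03) and E2f1 (0.12 ± 0.05) did not pass, E2f1 doing so without WT vehicle replicate 1 (0.19), and the replication licensing gene Cdt1 was lower in KO by 0.18 ± 0.03 (limma adjusted p = 0.00113), with 13.02 and 13.01 against 15.02 and 14.7 FPKM. With agonists Rrm2, Tk1, Mcm7 and Cdc45, which joins MCM in the active helicase, were higher by 0.87 ± 0.07, 0.69 ± 0.05, 0.65 ± 0.05 and 0.58 ± 0.07, while Pcna, E2f1 and Cdt1 did not pass. Cdkn1b was higher in KO by 0.28 ± 0.03 with vehicle and 0.21 ± 0.03 with agonists. Cdkn1a was higher by 0.12 ± 0.03 and 0.15 ± 0.03, the former lost without WT vehicle replicate 2 (0.11) or KO vehicle replicate 2 (0.09).

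Cell type markers differed too between these arms. Summed macrophage markers were 688 to 692 FPKM in WT vehicle and 486 to 487 in KO vehicle libraries, and 4 of the 5 that were tested were lower in KO (median -1.46). Summed neutrophil markers were 50.1 to 67.2 and 95.4 to 107.1 FPKM, with 4 of 5 higher in KO, and summed dendritic cell markers 5879 to 5892 and 7227 to 7348. Progenitor markers summed to 4.96 to 5.41 and 5.51 to 5.81 FPKM, with 3 of 8 higher and 1 lower in KO (median 0.02). Elane and Ctsg among the 8 were at 0 in both KO vehicle libraries. The part of these markers in the difference of the cycle genes was not tested. The genotype label of KO vehicle libraries is the null allele and that of KO agonist libraries the shortened one, and the difference from WT was found at both treatments.

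**Figure D5:**
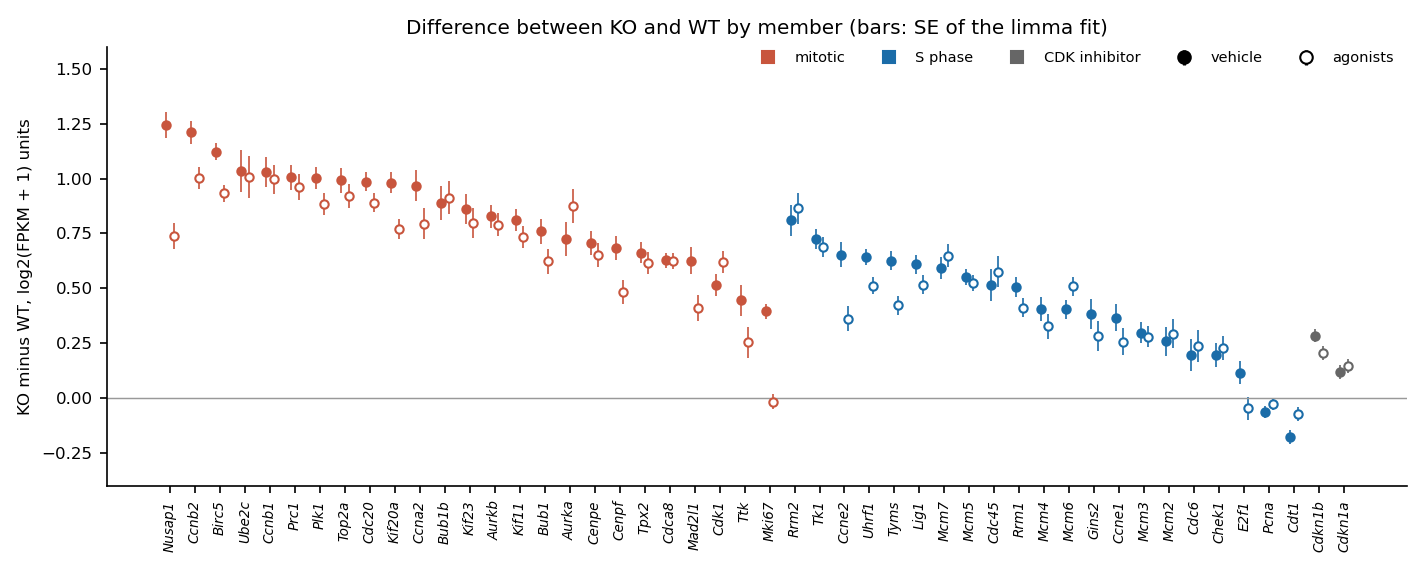
KO minus WT difference of log2(FPKM + 1) (y axis) of each of the 48 genes with vehicle (filled) and agonists (open), with limma standard errors as bars, ordered within mitotic, S phase and inhibitor genes. All 25 mitotic genes lie above 0 with vehicle, from 0.40 (Mki67) to 1.24 (Nusap1), and Cdt1 and Pcna lie below 0. Cenpf, among the 25, passed the filter on low values only through the KO vehicle libraries and is no support.

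Between the ovariectomized arms with vehicle the members moved both ways. In Ex3a OVX, 6 mitotic and 5 S phase genes were higher than in ERKO OVX and 5 and 3 lower, with medians of 0.03 and 0.12, where 55.3% of tested genes passed, 29.3% higher and 26.1% lower. Tk1 led (0.68 ± 0.07, limma adjusted p = 1.6e-05), followed by Cdt1 (0.62 ± 0.05), Plk1 (0.45 ± 0.07) and Birc5 (0.38 ± 0.06). The lower genes were led by Mki67 (-0.46 ± 0.05, limma adjusted p = 2.74e-05), Tpx2, a spindle assembly factor (-0.39 ± 0.07), Tyms (-0.39 ± 0.06) and Bub1, a checkpoint kinase (-0.23 ± 0.08). The pairs of Tk1, Plk1, Mki67 and Tyms did not overlap between the arms. With the 16 libraries as separate samples 10 S phase genes were higher, and without either KO agonist library 8. Without either WT vehicle library 2 mitotic genes were lower. Scaling by the median turned the split of 12 higher and 9 lower among the 48 to 8 and 10. With agonists 14 mitotic genes were lower and none higher (median -0.20), while 8 S phase genes were higher and 2 lower (median 0.14), where 62.7% of tested genes passed, 32.1% higher and 30.6% lower. Scaling by the FPKM sum turned that split of 8 higher and 17 lower over the 48 to 2 and 27 (2 and 5 among S phase genes), and the median of all tested genes was then -0.15. This comparison moved with length as well (rho -0.33 over the 10809 tested genes with a length, median -0.18 past 5000 bases and 0.05 below). Bub1b (-0.63 ± 0.11), Mki67 (-0.54 ± 0.05), Prc1 (-0.49 ± 0.08) and Bub1 (-0.48 ± 0.08) were the lowest. Lig1, the ligase that joins Okazaki fragments (0.58 ± 0.06), Cdt1 (0.45 ± 0.05), Mcm2 (0.39 ± 0.09) and Mcm7 (0.34 ± 0.07) were the highest. Marker levels also differed between these arms. With vehicle 5 of 5 macrophage markers were higher in Ex3a OVX (median 1.47) and 5 of 5 mast cell and basophil markers lower (median -1.44). Of 8 progenitor markers 1 was higher and 5 lower. Summed neutrophil markers were 1266 to 1267 FPKM in ERKO OVX vehicle and 266 to 268 in Ex3a OVX vehicle libraries. The part of these markers was not tested.

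Ovariectomy with estradiol could be set against no surgery only between ERKO OVX and KO, which share a source label of the receptor. With vehicle 12 S phase and 9 mitotic genes were higher in ERKO OVX and 3 and 7 lower, in a comparison where 80.9% of tested genes passed, 40.9% higher and 39.9% lower. With agonists the counts were 19 and 15 higher and 1 and 3 lower, beside 78.7% of tested genes, 40.1% higher and 38.6% lower. Pcna was higher by 0.79 ± 0.03 with vehicle (118 and 116 against 203 and 204 FPKM) and by 0.82 ± 0.03 with agonists, Rrm2 by 0.48 ± 0.09 and 1.04 ± 0.09, and Cdk1 by 0.53 ± 0.06 and 0.61 ± 0.06. Mki67 was lower by 1.56 ± 0.04 and 1.32 ± 0.04, Cenpe, a kinetochore motor, by 1.14 ± 0.07 and 0.77 ± 0.07, and Cdkn1b by 0.92 ± 0.04 and 1.02 ± 0.04. In each of these 6 genes, at both treatments, the pairs of the 2 arms did not overlap. Over all genes 46.1% lay wholly above and 44.7% wholly below in ERKO OVX with vehicle, and 46% and 43.9% with agonists. With vehicle Ube2c (0.65 ± 0.12), Birc5 (0.54 ± 0.05) and Ccnb2 (0.54 ± 0.06) followed Pcna among the higher genes, and Cenpf (-0.76 ± 0.07) was the fourth of the lower ones. Cenpf passed the filter on low values only through the KO vehicle libraries, so its lower level in ERKO OVX is no support. With agonists Tk1 (0.85 ± 0.06), Ccne1 (0.83 ± 0.08) and Cdt1 (0.82 ± 0.04) followed Rrm2, and Tyms was lower by 0.54 ± 0.05.

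These differences, like those between and within the ovariectomized arms given above, moved with transcript length, and also with scaling. Over 10809 tested genes with a known length, the log2 difference with vehicle fell with the longest annotated transcript (Spearman's rho -0.40, a description across genes, which are not independent), and over the 48 members rho was -0.51. With agonists rho over all tested genes was -0.33. The 6 members longer than 5000 bases had a median of -0.50 and the others of 0.13, and the longest, Cenpf (11130 bases), Mki67 (10061 bases) and Cenpe (7910 bases), were 3 of the lower ones. Mad2l1 (7557 bases) went the other way with vehicle, from 12.4 and 11.4 FPKM in KO to 15.9 and 15.8 in ERKO OVX. Rrm1 (5475 bases) was also higher there, and Top2a (5221 bases) was lower, with 17.2 and 17.1 FPKM in KO and 14.4 and 14.2 in ERKO OVX. With each library scaled to the same FPKM sum, 2 members were higher and 34 lower with vehicle, and 19 and 13 with agonists, while the median of all tested genes was -0.38 and -0.29. The lower level of Mki67, Cenpe and Cdkn1b held with scaling by the FPKM sum and by the median, and the part of length, of depth and of surgery in these differences cannot be told apart.

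Other genes of the pathway were counted in lists that do not overlap the 48 and that were also drawn up with earlier results known, so they are no independent support. Among 48 tested further S phase genes (polymerases, replication factors, origin and chromatin assembly proteins), 40 fell and 1 rose with agonists in WT. The counts were 43 and 0 for KO, 18 and 0 for ERKO OVX, and 17 and 1 for Ex3a OVX. These are 83.3%, 89.6%, 37.5% and 35.4% lower, beside 27%, 25.3%, 19.2% and 18.3% of all tested genes. Timeless, a fork protection factor (-0.87 ± 0.04), and Wdhd1, a polymerase anchor (-0.86 ± 0.05), fell the most in WT, and Pold2, a polymerase subunit, rose (0.25 ± 0.05). Among 48 tested further mitotic genes, 26 fell and 3 rose in WT, and the counts were 34 and 1 for KO, 7 and 2 for ERKO OVX, and 27 and 1 for Ex3a OVX. The shares that fell were 54.2%, 70.8%, 14.6% and 56.2%, of which the one in ERKO OVX lay below the 19.2% of all tested genes. Cenpa, the histone of centromeres, fell by 1.26 ± 0.04 in WT and 0.81 ± 0.04 in KO, and Cdc25b, a phosphatase that activates Cdk1, by 0.94 ± 0.06 and 0.86 ± 0.06. In Ex3a OVX the largest falls of that list were those of Foxm1, the activator of mitotic genes (-0.70 ± 0.08), and Racgap1, needed for cytokinesis (-0.58 ± 0.09). Foxm1 was also the gene of the list whose response was the most negative in Ex3a OVX against ERKO OVX (-0.61 ± 0.11, limma adjusted p = 0.00369). Between KO and WT with vehicle, 48 of 48 further mitotic genes were higher, and 45 of 48 further S phase genes were higher and 1 lower. Of all tested genes 31.5% were higher and 28.7% lower in that comparison. With agonists 48 of 48 further mitotic genes were higher, and 38 of 48 further S phase genes were higher and 1 lower. Of all tested genes 27.2% were then higher and 27.6% lower.

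The regulators of G1 did not move as 1 group. Of 17, 7 fell and 3 rose in WT with agonists, and 9 and 4 in KO. The falls were 41.2% and 52.9%, beside 27% and 25.3% of tested genes, and the rises 17.6% and 23.5%, beside 30.8% and 25.9%. Ccnd1, cyclin D1, had 11.3 and 11.02 FPKM in WT vehicle and 3.11 and 2.87 in WT agonist libraries and fell by 1.61 ± 0.05, whereas Ccnd2, cyclin D2, went from 50.8 and 48.6 to 126 and 129 FPKM and rose by 1.34 ± 0.03. Myc, a growth factor-induced transcription factor, fell by 0.92 ± 0.04 in WT and 0.76 ± 0.04 in KO. In Ex3a OVX vehicle libraries Ccnd1 stood at 23.6 and 21.8 FPKM against 2.81 and 2.71 in ERKO OVX, a difference of 2.66 ± 0.07 (limma adjusted p = 2.07e-09). Myc was higher there too, by 0.80 ± 0.06. Cdkn1c, the CDK inhibitor p57, had 0.624 and 0.768 FPKM in KO vehicle and 13.4 and 13.6 in ERKO OVX vehicle libraries. Of 16 targets of p53, the factor that induces Cdkn1a, 4 rose and 7 fell in WT and 3 rose and 5 fell in KO. The rises were 25% and 18.8%, beside 30.8% and 25.9% of tested genes, and the falls 43.8% and 31.2%, beside 27% and 25.3%.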

How the data were processed

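Per the submitters' processing notes, reads were handled with cutadapt, FastQC, STAR, HTSeq and DESeq2 on build mm10. The authors deposited 1 table of FPKM values per gene and library. The program behind them was not given in the sources used here. From the table, 1228 small-RNA genes were left out, 6 isolated zeros were taken as missing (none in a described gene), and genes had to reach 1 FPKM in 2 libraries. R 4.3.3 with limma 3.58.1 (trend, robust) was fitted to log2(FPKM + 1) of 12 samples (unoperated libraries singly, each ovariectomized pair averaged) over all tested genes, with Benjamini-Hochberg adjustment within each of 13 comparisons. Groups follow the source labels. Same-numbered libraries did not deviate together (r -0.14 to 0.14), so numbers were not used as pairs. On simulated data for the WT response (10732 genes, 200 changed), 95% were recovered, and 2.56% of calls were false. The planted changes were larger than many called above, and residual spreads were shuffled over genes. Apart from them all groups had the same mean for a gene, and no change was planted in an ovariectomized arm. These rates therefore do not describe small changes or those arms. Depth was estimated from steps between low values, of which 49.9% to 55.4% lay near whole fragments. The members and lists were chosen with earlier results of these data known. Values in every library are given for 18 genes of leading role. Beyond these, each comparison names the called genes of largest change and those against their class. Alternatives were other pseudocounts, filters, scalings, sample units and each library left out.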

Additional observations from a re-analysis of the deposited data

Results flagged for a closer look

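For 37 responses the agonist change differed between 2 arms by the interaction term of the limma fit (adjusted p at most 0.05), and each is given as a log2 difference of responses. Against WT, the response labelled KO was lower for Nusap1 (-0.50) and Mki67 (-0.41).

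The response of Ex3a OVX minus that of ERKO OVX passed for Plk1 (-0.65), Bub1b (-0.49), Tk1 (-0.48), Aurkb (-0.41), Birc5 (-0.41), Mad2l1 (-0.36), Nusap1 (-0.36), Kif11 (-0.33), Cdk1 (-0.31) and Mcm6 (0.27).

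The response of ERKO OVX minus that of KO was below 0 for Tyms (-0.72) and Cdkn1a (-0.34). It was above 0 for Mki67 (0.24), Mcm6 (0.27), Top2a (0.31), Lig1 (0.31), Nusap1 (0.33), Kif11 (0.35), Mcm4 (0.35), Cenpe (0.37), Mcm5 (0.40), Aurkb (0.42), E2f1 (0.43), Bub1 (0.44), Ccne1 (0.46), Chek1 (0.50), Mcm7 (0.50), Cdc45 (0.51), Tk1 (0.53), Uhrf1 (0.55), Rrm2 (0.57), Cdt1 (0.58), Mcm2 (0.64), Cdc6 (0.80) and Ccne2 (0.91). Surgery, depth and marker levels differ between these arms in the same way and cannot be told apart.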

How the results depend on the processing

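Of the member values under the alternatives, 15725 kept their direction and side of the threshold, 307 gained a call, 269 lost one and 20 reversed. All 20 reversals came with scaling to the same FPKM sum, which moves the median of all tested genes by construction. With vehicle, ERKO OVX minus KO went below 0 for Aurkb (-0.22), Cdc20 (-0.24), Nusap1 (-0.069), Mad2l1 (-0.010), Mcm3 (-0.22), Mcm5 (-0.25), Tyms (-0.21), Rrm1 (-0.17), Tk1 (-0.087), Cdt1 (-0.17), Cdc45 (-0.14), Gins2 (-0.13), Ccne1 (-0.021), E2f1 (-0.15) and Cdkn1a (-0.31). With agonists it did so for Plk1 (-0.074), Tpx2 (-0.11), Cdca8 (-0.11), Mcm6 (-0.15) and Gins2 (-0.029). The 2 differing responses of KO against WT became 6 with a pseudocount of 5, and sum scaling split them into 1 and 2. The 10 of Ex3a OVX against ERKO OVX became 4 without the filter, 20 with sum scaling and 26 with 16 libraries as separate samples, and median scaling gave 3 and 7; the cause was not tested. With the replicate block, 26 differed there as well (7 higher and 19 lower), and no other count over the 48 moved by over 1.5 times, though the numbers do not pair the libraries. Leaving out 1 library gave 35 to 39 calls for the WT response, 38 to 46 for KO, 16 to 18 for ERKO OVX and 28 to 30 for Ex3a OVX. It gave 42 to 46 and 42 to 44 for KO minus WT, 14 to 24 and 25 to 26 for Ex3a OVX minus ERKO OVX, and 26 to 34 and 37 to 42 for ERKO OVX minus KO, with vehicle and agonists. For the response differences it gave 2 to 3, 9 to 13 and 19 to 26. With 2 libraries a group and borrowed error in the ovariectomized arms, how well changes are detected there has no replicate check. Counts of members under the alternatives are given without the share of all tested genes that passed.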
